A study of Homo sapiens with 6 samples.

Results

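The DNA damage checkpoint kinases ATM, ATR, CHEK1 and CHEK2 and 6 of their activators and partners, ATRIP, TOPBP1, MDC1, RAD9A, HUS1 and RAD17, were followed by RNA sequencing. These 10 genes were chosen by gene name, and all 10 were found among the 30560 genes of the table. The cells were HCT116, an established human colorectal carcinoma line, labelled as wild type in genotype. A control group of 3 samples received DMSO, and a group of 3 samples received irinotecan (CPT-11) at 10 µM for 48 hours. Irinotecan is a camptothecin prodrug whose active metabolite traps topoisomerase I on DNA. The design text speaks of duplicates while the labels give 3 samples a group, and all 6 were used. Nothing in the labels says that samples within a group are separate cultures; p-values here therefore reflect only how these samples scatter, which may be technical.

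ATM and ATR are large protein kinases of the phosphatidylinositol 3-kinase-related family that stand at the head of the DNA damage checkpoint. ATM is activated at double-strand breaks through the MRE11-RAD50-NBN complex and phosphorylates CHEK2, while MDC1 binds the phosphorylated histone H2AX and holds the signal at the break. ATR is brought by its partner ATRIP to single-stranded DNA coated with RPA, as at stalled replication forks, and phosphorylates CHEK1. There RAD17, with the small RFC subunits, loads the ring-shaped clamp of RAD9A, RAD1 and HUS1 onto DNA, and RAD9A recruits TOPBP1, which switches ATR on. CHEK1 and CHEK2 then act on the CDC25 phosphatases and other substrates to hold the cell cycle.

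The 6 libraries held 15398464 to 18031195 reads on genes. The values are normalized counts, which are read counts divided by a size factor per library by the authors. The 10 genes had 1149 to 6406 reads each over the 3 controls and 753 to 4261 over the 3 CPT-11 samples. The epithelial markers EPCAM and KRT18 had 11582 and 28465 reads over the controls, whereas the intestinal marker VIL1 had 7. The listed markers CDX1 (epithelial), CD3E (leukocyte) and DCN (fibroblast) had no row under those names. Of the leukocyte markers, PTPRC had 3 reads in all controls together and 7 after CPT-11, and CD68 had 0 and 4. Fibroblast markers summed to 0 to 2.0 and 1.01 to 6.31 normalized counts, and endothelial markers to 18.2 to 24.5 and 16.8 to 24.3. The mitochondrial chromosome took 6.84% to 7.45% of reads in controls and 9.70% to 10.9% after CPT-11. Epithelial markers with a row summed to 54422 to 62239.9 normalized counts in controls and 101213 to 112140.4 after CPT-11. They did not move alike, with log2 fold changes of 0.94 for KRT8, 1.01 for KRT18 and 0.94 for KRT19. CDH1 had 0.40 and EPCAM -0.05. The part of the mitochondrial and epithelial shifts in the results was not tested. Control 1 was the highest control for 7 of the 10 genes, and CPT-11 sample 1 was the lowest of its group for 6.

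After CPT-11, 4 of the 10 genes fell, 2 rose and 4 did not pass the test, with ATM and ATR, the kinases at the head of the pathway, among the last, while parts of the machinery that activates ATR moved in opposite directions. The genes that fell were CHEK1, TOPBP1, RAD9A and MDC1, each to between 49.0% and 53.1% of its control level. The genes that rose were ATRIP and HUS1, to 133% and 134%. A gene was called at a Benjamini-Hochberg adjusted p below 0.05 in limma across all tested genes. Of 16239 tested genes, 49.4% were called, 25.1% lower and 24.3% higher, so 6 called genes of 10 lie close to the background. Those 6 genes were also the ones whose groups did not overlap, against 56.6% of all tested genes. The median log2 fold change of the 10 genes was -0.12, and that of all tested genes was 0.01. The former rested on single libraries, at -0.043 without control 1 and -0.176 without CPT-11 sample 2. Changes of at least 2-fold were called for CHEK1 and TOPBP1, 2 of the 10, against 14.0% of all tested genes; both were lower, as were 7.43% of all tested genes at that size, while 6.56% were higher by as much. In bulk RNA a smaller number of cells that express a gene and less RNA per cell cannot be told apart.

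**Figure D1:**
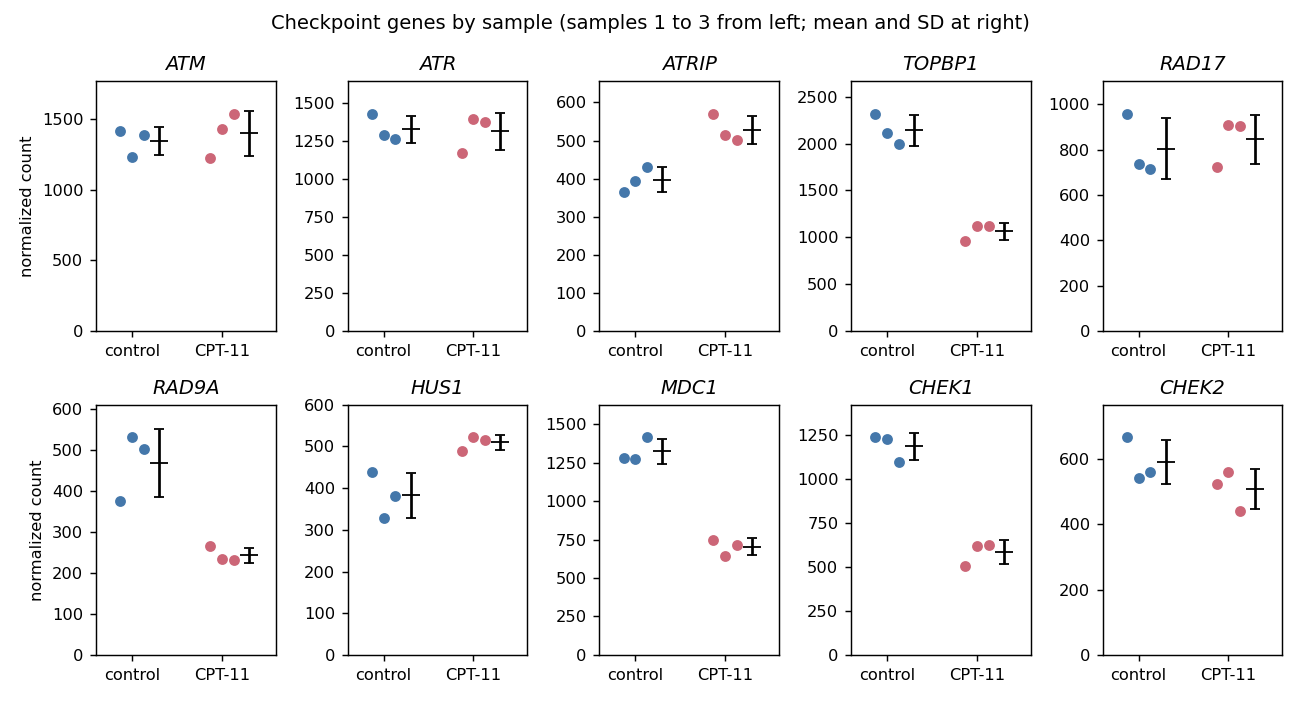
Normalized counts of the 10 checkpoint genes (y axis, linear from 0) in the 3 control samples (blue) and the 3 CPT-11 samples (red), with the mean and SD of each group in black. The groups are apart for ATRIP, TOPBP1, RAD9A, HUS1, MDC1 and CHEK1 and overlap for ATM, ATR, RAD17 and CHEK2.

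Levels can be compared between genes only per length, and were expressed as RPKM, reads on a gene scaled by its exon length and by the library's reads on genes, with all annotated exons of a gene counted. In controls TOPBP1 had the highest level of the 10, 17.7 ± 1.11 RPKM (SD, n = 3), and ATM the lowest, 3.39 ± 0.28. RAD17 at 11.7 ± 1.82, CHEK1 at 10.9 ± 0.48 and MDC1 at 9.93 ± 0.82 followed TOPBP1, and within these 3 each gene overlapped the next. A run of overlapping neighbours then went from CHEK2 at 7.93 ± 0.86 through RAD9A, ATR and HUS1 to ATRIP at 4.43 ± 0.46. After CPT-11, RAD17 was highest at 12.6 ± 1.43 RPKM and TOPBP1 was next at 9.03 ± 0.67, without overlap. CHEK1, between 4.83 and 5.88 RPKM, then lay below CHEK2, from 6.06 upwards, whereas every control had more CHEK1 than CHEK2 per length. RAD9A at 3.63 ± 0.33 and ATM at 3.60 ± 0.38 formed the lower end and overlapped. All annotated exons enter the length, which was 23972 bases for ATM and 4103 for HUS1, so a gene with many rarely used exons appears lower.

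**Figure D2:**
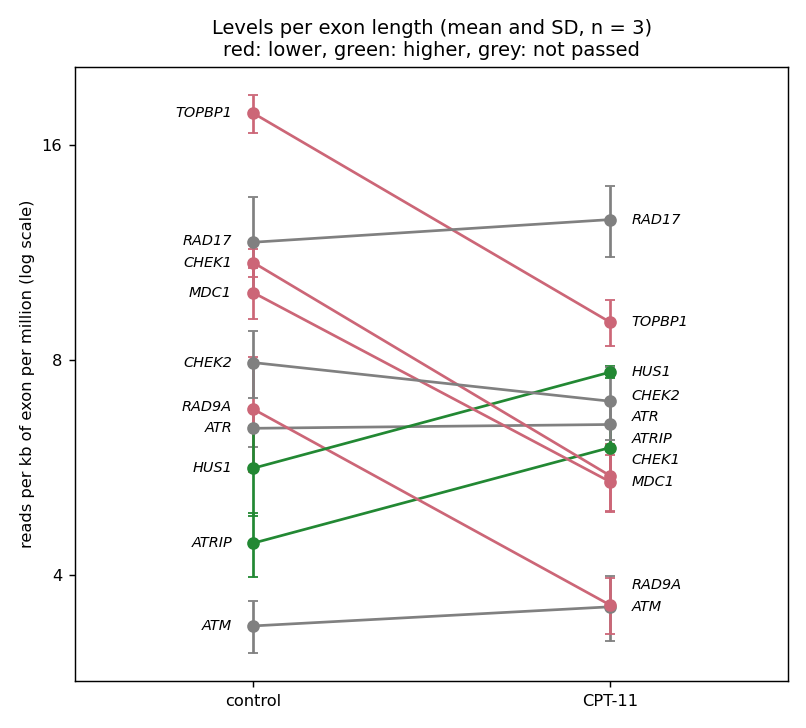
Level of each checkpoint gene per exon length (y axis, RPKM on a log scale) in control and CPT-11 samples, as mean and SD of 3 samples. Lines are red for genes that fell, green for genes that rose and grey for genes that did not pass; TOPBP1 and CHEK1 pass below RAD17 and CHEK2 after CPT-11.

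ATM (ENSG00000149311, chromosome 11, 108222484 to 108369102 on GRCh38) encodes the kinase that answers double-strand breaks. It had 1413, 1231 and 1384 normalized counts in controls 1, 2 and 3. CPT-11 samples 1, 2 and 3 had 1224, 1431 and 1536. The groups overlapped, with the lowest and the highest value both among the CPT-11 samples. The means were 1343 ± 97.6 and 1397 ± 159 (SD, n = 3), with a log2 fold change of 0.05 (SE 0.10, 95% interval -0.16 to 0.27, adjusted p = 0.695). ATR (ENSG00000175054, chromosome 3, 142449235 to 142578826), the kinase of stalled forks, had 1428, 1287 and 1262 normalized counts in controls and 1168, 1393 and 1372 after CPT-11. Here too the groups overlapped, and library 1 was the highest control and the lowest CPT-11 sample. The log2 fold change of ATR was -0.02 (SE 0.10, 95% interval -0.23 to 0.19, adjusted p = 0.896). ATR shares 16.4% of its exonic bases with a processed pseudogene on the opposite strand, whose part in the ATR count was not tested. The intervals of both genes leave room for changes between 0.855-fold and 1.21-fold.

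Both kinases are encoded by long genes, and fold changes in these data varied with genomic span. ATM spans 146.6 kb and ATR 129.6 kb. Among 1083 tested protein-coding genes spanning 120 to 200 kb, 569 were lower and 105 higher, and their median log2 fold change was -0.33. For the 4717 genes shorter than 20 kb, 768 were lower and 1612 higher, and the median was 0.16. With the trend over span subtracted, the log2 fold change less the trend was 0.38 for ATM (adjusted p = 0.00477) and 0.26 for ATR (adjusted p = 0.036). Such values, here and below, measure the distance of a gene from the trend, not its change from control. The trend was estimated from the same samples and then treated as known, so these p-values leave out its error. The part of span in the changes of ATM and ATR was not tested.

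ATRIP (ENSG00000164053, chromosome 3, 48446710 to 48467645), the partner that brings ATR to RPA-coated DNA, had 366, 394 and 432 normalized counts in controls and 570.4, 514 and 501 after CPT-11. Every CPT-11 sample was above every control. The mean rose from 397 ± 33.1 to 528 ± 37.1 (SD, n = 3; log2 fold change 0.41 with SE 0.11 and adjusted p = 0.00623). ATRIP shares 27.9% of its exonic bases with TREX1, an exonuclease gene on the same strand that is not analysed here, so its count is uncertain: the sources used here do not state how reads on shared exons were assigned. With the span trend subtracted the log2 fold change was 0.27 (adjusted p = 0.0639).

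Among the genes of the clamp, which is needed for ATR activation, RAD17 did not pass, 1 ring subunit rose and another fell. RAD17 (ENSG00000152942, chromosome 5, 69369293 to 69414801), the large subunit of the clamp loader, had 959, 738 and 717 normalized counts in controls and 722, 908 and 907 after CPT-11. Control 1 was the highest of all 6 and CPT-11 sample 1 lay among the other controls. The log2 fold change was 0.08 (SE 0.13, 95% interval -0.19 to 0.34, adjusted p = 0.643). Without library 1 of both groups, a choice made after seeing the data, RAD17 was higher by 0.32 on the log2 scale (adjusted p = 0.00272). RAD17 shares 9.14% of its exonic bases with TAF9 on the opposite strand, with 3443 reads in the controls together and 6106 in the CPT-11 samples. Whether counting used strand is not stated in those sources, and the part of TAF9 in the RAD17 count was not tested.

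RAD9A (ENSG00000172613, chromosome 11, 67317871 to 67398410), the ring subunit whose tail binds TOPBP1, had 375, 532 and 503 normalized counts in controls and 265, 234 and 232 after CPT-11. All CPT-11 samples lay below all controls, among which control 1 was the lowest. The mean fell from 469.8 ± 83.4 to 244 ± 18.6 (SD, n = 3; log2 fold change -0.93 with SE 0.14 and adjusted p = 2.82e-05). RAD9A shares 5.47% of its exonic bases with PPP1CA on the opposite strand, which had 9000 reads in the controls together and 6911 in the CPT-11 samples. The part of PPP1CA in the RAD9A count was not tested. The annotated gene spans 80.5 kb in the deposited table and 6.43 kb in RefSeq, so its place on the span trend depends on the annotation.

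HUS1 (ENSG00000136273, chromosome 7, 47963288 to 47979553), another ring subunit, had 438, 328 and 381 normalized counts in controls and 490.2, 522 and 516 after CPT-11. The 3 CPT-11 samples were close together and all above the controls. The mean rose from 382 ± 54.8 to 509 ± 16.9 (SD, n = 3; log2 fold change 0.42 with SE 0.12 and adjusted p = 0.0081). The call was lost without control 2 (log2 fold change 0.32, adjusted p = 0.0593) and with the span trend subtracted (0.26, adjusted p = 0.0977). No other annotated gene shares exonic bases with HUS1.

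TOPBP1 (ENSG00000163781, chromosome 3, 133598175 to 133662380), the scaffold that activates ATR and also serves in replication initiation, had 2318, 2108 and 1997 normalized counts in controls and 959, 1117 and 1121 after CPT-11. The groups were far apart, with the highest CPT-11 sample well below the lowest control. The mean fell from 2141 ± 163 to 1066 ± 92.4 (SD, n = 3), a 2.01-fold decrease (log2 fold change -1.01, SE 0.10, adjusted p = 1.71e-07).

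MDC1 (ENSG00000137337, chromosome 6, 30699807 to 30717889), the mediator that reads phosphorylated H2AX beside breaks, had 1280.0, 1274 and 1414 normalized counts in controls and 749, 642 and 715 after CPT-11. The groups did not overlap. The mean fell from 1323 ± 79.3 to 702 ± 54.7 (SD, n = 3; log2 fold change -0.91 with SE 0.10 and adjusted p = 7.03e-07). The antisense gene MDC1-AS1 shares 8.69% of the exonic bases of MDC1 and had 2 reads in all controls together and 0 in the CPT-11 samples.

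Of the effector kinases, CHEK1 fell and CHEK2 did not pass. CHEK1 (ENSG00000149554, chromosome 11, 125625136 to 125676255), the effector of ATR that is also needed in undisturbed S phase, had 1237, 1226 and 1099 normalized counts in controls and 503, 622 and 625 after CPT-11. All CPT-11 samples were below all controls, and CPT-11 sample 1 was the lowest. The mean fell from 1188 ± 76.4 to 583 ± 69.3 (SD, n = 3), a 2.04-fold decrease (log2 fold change -1.03, SE 0.11, adjusted p = 5.04e-07). CHEK2 (ENSG00000183765, chromosome 22, 28687743 to 28742422), the effector of ATM, had 666, 540.3 and 561 normalized counts in controls and 524, 559 and 441 after CPT-11. The groups overlapped, since CPT-11 sample 2 lay above control 2. The log2 fold change was -0.21 (SE 0.12, 95% interval -0.47 to 0.04, adjusted p = 0.153). CHEK2 shares 6.70% of its exonic bases with HSCB on the opposite strand.

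**Figure D3:**
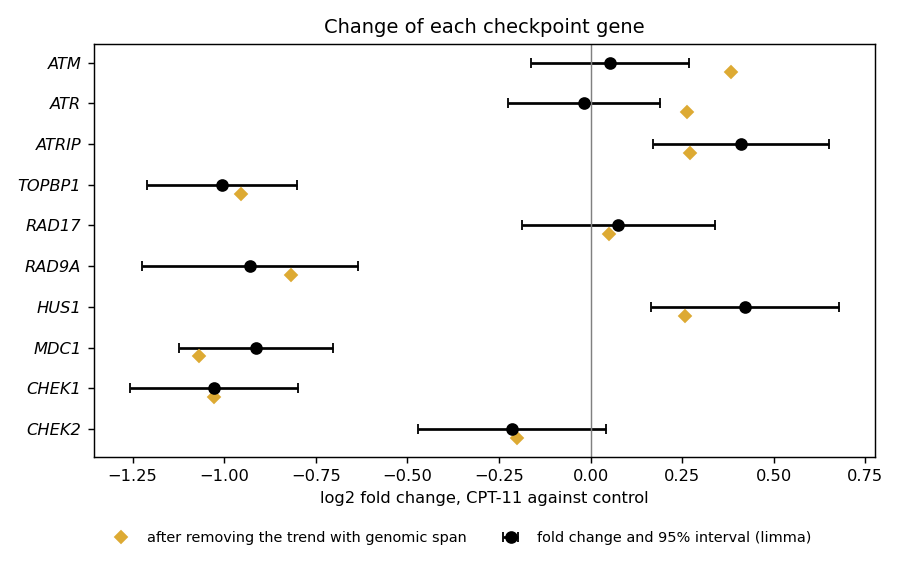
Log2 fold change of each checkpoint gene, CPT-11 against control (x axis), with its 95% interval from limma (black) and the value after the trend with genomic span was subtracted (yellow). TOPBP1, RAD9A, MDC1 and CHEK1 lie near -1, ATRIP and HUS1 near 0.4, and ATM and ATR shift to 0.38 and 0.26 with the trend subtracted.

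The CHEK1 to CHEK2 contrast was also read as a ratio within each sample, which does not depend on library scaling. CHEK1 over CHEK2, as a ratio of normalized counts, was 1.86, 2.27 and 1.96 in controls 1, 2 and 3, and 0.961, 1.11 and 1.42 after CPT-11. The ratios did not overlap and the log2 ratio was lower by a mean difference of -0.81 (exact permutation test, two-sided, p = 0.1, adjusted p = 0.15 over 6 pairs). With 3 samples against 3 the smallest p this test allows is 0.1, so no pair could pass.

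RAD9A over HUS1 was 0.856, 1.62 and 1.32 in controls and 0.542, 0.4496 and 0.451 after CPT-11, a log2 difference of -1.35 without overlap. The ratio of RAD17 to RAD9A went from 2.55, 1.39 and 1.43 to 2.71, 3.87 and 3.89, a log2 difference of 1.0 in which CPT-11 sample 1 was only just above control 1. For ATR over ATRIP the ratios were 3.89, 3.26 and 2.92 in controls and 2.05, 2.71 and 2.74 after CPT-11, a log2 difference of -0.43. Each of these 3 pairs also reached the exact permutation p = 0.1 (adjusted p = 0.15). ATM over ATR stayed between 0.957 and 1.12 in all 6 samples, with a log2 difference of 0.07 (exact permutation p = 0.4, adjusted p = 0.48). TOPBP1 over MDC1 overlapped between groups, with a log2 difference of -0.09 (exact permutation p = 0.6, adjusted p = 0.6).

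**Figure D4:**
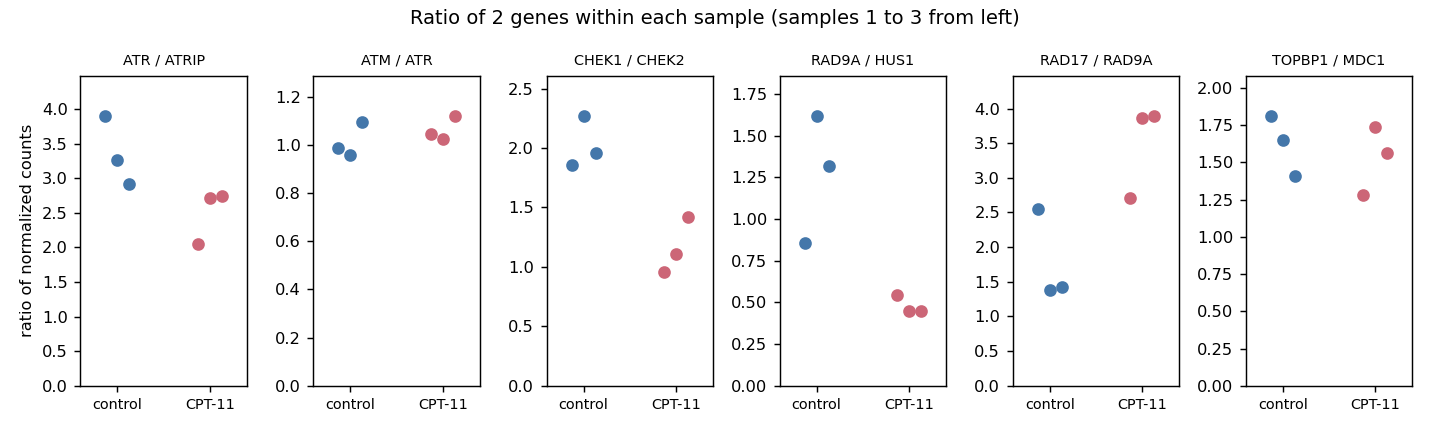
Ratio of normalized counts of 2 checkpoint genes within each sample (y axis, linear from 0; controls blue, CPT-11 red). The ratios of ATR to ATRIP, CHEK1 to CHEK2, RAD9A to HUS1 and RAD17 to RAD9A do not overlap between groups, and those of ATM to ATR and TOPBP1 to MDC1 do.

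Because CHEK1, TOPBP1, RAD9A and MDC1 fell together, a promoter window of each is shown, with that of CHEK2 as the effector kinase that did not pass. The sequences are from RefSeq on GRCh38.p14 and run from 250 bases before a listed start of a gene to 50 after it. Such a window existed for 9 of the 10 genes and HUS1 had none. For CHEK1 and RAD17 every window lay inside the gene, downstream of its first base in RefSeq (125625136 and 69369293). The region around that first base was therefore not searched for these genes. Capitals mark 3 motifs, searched on both strands: E2F octamers (TTTCCCGC, TTTCGCGC, TTTGCCGC or TTTGGCGC, motifs of cell cycle genes), the CHR hexamers of cell cycle genes (TTTGAA or TTCGAA) and the CCAAT box bound by NF-Y. The windows are chr3:133661892-133662191 on the minus strand for TOPBP1, chr6:30717232-30717531 on the minus strand for MDC1, chr11:67391736-67392035 on the plus strand for RAD9A, chr11:125626106-125626405 on the plus strand for CHEK1, the most downstream of 3 listed starts, and chr22:28741771-28742070 on the minus strand for CHEK2.
TOPBP1: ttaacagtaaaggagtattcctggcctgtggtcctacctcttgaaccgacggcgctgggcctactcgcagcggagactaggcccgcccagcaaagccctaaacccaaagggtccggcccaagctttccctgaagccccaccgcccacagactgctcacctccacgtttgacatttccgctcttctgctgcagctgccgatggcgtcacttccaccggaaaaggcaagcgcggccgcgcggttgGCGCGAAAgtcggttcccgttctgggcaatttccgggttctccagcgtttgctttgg
MDC1: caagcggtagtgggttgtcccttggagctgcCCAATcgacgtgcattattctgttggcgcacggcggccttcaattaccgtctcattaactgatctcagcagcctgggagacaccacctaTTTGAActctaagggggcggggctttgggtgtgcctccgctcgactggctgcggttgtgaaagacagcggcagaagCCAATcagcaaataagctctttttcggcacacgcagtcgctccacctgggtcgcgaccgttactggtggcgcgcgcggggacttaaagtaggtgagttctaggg
RAD9A: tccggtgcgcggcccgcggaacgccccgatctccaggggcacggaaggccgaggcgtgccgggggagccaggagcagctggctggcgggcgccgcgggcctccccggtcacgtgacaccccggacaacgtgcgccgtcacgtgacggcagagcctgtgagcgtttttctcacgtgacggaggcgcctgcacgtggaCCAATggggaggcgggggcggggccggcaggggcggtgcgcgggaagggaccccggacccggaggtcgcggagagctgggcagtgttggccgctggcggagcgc
CHEK1: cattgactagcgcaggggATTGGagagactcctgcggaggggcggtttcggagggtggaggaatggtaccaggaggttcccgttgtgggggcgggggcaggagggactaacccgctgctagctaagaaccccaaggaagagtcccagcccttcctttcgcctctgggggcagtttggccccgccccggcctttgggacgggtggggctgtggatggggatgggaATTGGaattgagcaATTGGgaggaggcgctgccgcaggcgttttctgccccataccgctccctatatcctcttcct
CHEK2: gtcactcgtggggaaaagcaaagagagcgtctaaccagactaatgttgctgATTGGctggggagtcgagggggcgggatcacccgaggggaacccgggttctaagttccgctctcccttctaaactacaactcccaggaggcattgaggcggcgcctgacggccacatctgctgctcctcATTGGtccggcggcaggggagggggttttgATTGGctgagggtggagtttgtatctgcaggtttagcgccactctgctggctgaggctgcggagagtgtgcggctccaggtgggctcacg

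TOPBP1 was the only gene of the 9 with an E2F octamer in a window, TTTCGCGC on the opposite strand, so that the printed strand reads GCGCGAAA; 3.31% of all 35116 windows of this length hold such an octamer. A CHR hexamer was found in windows of 3 of the 9 genes, MDC1, ATM and RAD17, against 16.4% of all windows. Those of RAD17 lay in a window inside the gene. A CCAAT box was found in 7 of the 9, against 34.6% of all windows, and ATR and TOPBP1 had none. The printed windows of CHEK1 and CHEK2 held 3 each, while the windows at the other listed starts of CHEK1 held 1 each. Genes with several listed starts had several windows and so more chances of a match. No single motif was shared by the searched windows of all 4 genes that fell, and a match is a description of letters only.

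Other genes of the same pathway were counted in 6 lists by role, which were chosen with earlier results of these data known. Of 45 such genes, 43 entered the test, and 26 fell, 3 rose and 14 did not pass, where 25.1% of all tested genes fell and 24.3% rose. Their median log2 fold change was -0.48, against 0.01 for all tested genes. RAD9B and HUS1B, relatives of the ring subunits, had too few reads to enter.

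Of the 6 tested partners of the clamp and its loader, 5 fell and none rose, beside 25.1% lower and 24.3% higher over all tested genes, and the median log2 fold change was -0.88. RFC4, a small subunit shared by the replication and checkpoint clamp loaders, fell from 1093 ± 70.0 to 327 ± 29.3 normalized counts (SD, n = 3; log2 fold change -1.74, adjusted p = 8.08e-10). RFC5, another such subunit, went down from 1477 ± 142 to 569 ± 40.1 (log2 fold change -1.37). The other genes that fell were RFC2, RFC3 and RHNO1, which binds the clamp; RHNO1 did not pass without control 2 (log2 fold change -0.36, adjusted p = 0.0528). RAD1, the ring subunit that completes the clamp, had 701 ± 34.4 and 625 ± 59.4 normalized counts (-0.17 on the log2 scale, adjusted p = 0.201), and passed as lower with the span trend subtracted (-0.34, adjusted p = 0.0146). The 3 genes of the ring thus gave log2 fold changes of -0.93 for RAD9A, -0.17 for RAD1 and 0.42 for HUS1.

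On the ATR side, 6 of 7 sensors and mediators fell, against 25.1% of all tested genes, none rose and the median log2 fold change was -0.55. TIMELESS, a fork protection factor, fell from 1959 ± 54.6 to 801 ± 7.28 normalized counts (-1.29 on the log2 scale, adjusted p = 2.44e-09). CLSPN, claspin, the mediator that presents CHEK1 to ATR, fell from 747 ± 87.5 to 334 ± 18.3 (log2 fold change -1.15), and RPA3, the small RPA subunit, from 545 ± 56.4 to 259 ± 28.8 (log2 fold change -1.07). RPA1, RPA2 and TIPIN, the partner of TIMELESS, also fell; TIPIN shares 21.0% of its exonic bases with a pseudogene on its strand. ETAA1, which activates ATR independently of TOPBP1, had 515 ± 36.3 and 429 ± 37.4 normalized counts and did not pass (log2 fold change -0.27, adjusted p = 0.0628); with the span trend subtracted it passed as lower (-0.44, adjusted p = 0.0051).

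On the ATM side, 3 of 9 sensors and mediators fell, a share near the 25.1% of all tested genes, none rose and the median log2 fold change was -0.21. H2AFX, the gene of histone H2AX, fell from 3597 ± 831 to 1522 ± 170.1 normalized counts (-1.22 on the log2 scale, adjusted p = 9.01e-07), and BRCA1 from 1055 ± 60.8 to 462 ± 51.3 (log2 fold change -1.19). KAT5, the acetyltransferase that primes ATM, also fell, but shares 38.6% of its exonic bases with RNASEH2C on the opposite strand. The genes of the complex that activates ATM did not pass, with log2 fold changes of -0.09 for MRE11, -0.11 for RAD50 and -0.24 for NBN (adjusted p = 0.529, 0.609 and 0.0738). RAD50 shares 79.7% of its exonic bases with another annotated gene on its strand, so its count is uncertain. Whether the ATR and ATM sides differ in response was not tested.

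Among the other kinases of the family and the factors that assemble them, 3 of 7 fell and none rose, when 25.1% of all tested genes fell, and the median log2 fold change was -0.20. PRKDC, the catalytic subunit of DNA-dependent protein kinase, fell from 15954 ± 628 to 8538 ± 482 normalized counts (-0.90 on the log2 scale, adjusted p = 9.38e-08), and the kinase-dead relative TRRAP also fell (log2 fold change -0.67). MTOR, the growth kinase, had 2033 ± 39.2 and 2117 ± 7.79 (log2 fold change 0.06, adjusted p = 0.586), and SMG1, of nonsense-mediated decay, had a log2 fold change of -0.19 (adjusted p = 0.0984; -0.27 and 0.0389 without control 2). MTOR spans 156 kb and had a log2 fold change of 0.42 once the span trend was subtracted (adjusted p = 0.000433). PRKDC and TRRAP span 187 and 173 kb, and the same subtraction left -0.44 and -0.26. For SMG1, which spans 122 kb, it left 0.06 (adjusted p = 0.624 in limma). The assembly factor TTI1 fell (log2 fold change -0.30, adjusted p = 0.0194), but not without control 2 (adjusted p = 0.0793), control 3 (0.0777), CPT-11 sample 2 (0.0505) or CPT-11 sample 3 (0.0584). It was also lost with libraries scaled by total without mitochondrial genes (adjusted p = 0.0796), and passed in 13 of 19 other settings in all.

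Of 9 substrates of the checkpoint kinases, 6 fell and 1 rose, against 25.1% and 24.3% of all tested genes; the median log2 fold change was -1.16. E2F1, a transcription factor of S phase entry, fell from 746 ± 44.4 to 213 ± 2.40 normalized counts (-1.80 on the log2 scale, adjusted p = 7.5e-10). WEE1, the kinase that restrains CDK1, fell by 1.51 and its relative PKMYT1 by 1.19 on the log2 scale; PKMYT1 shares 31.6% of its exonic bases with PAQR4 and KREMEN2 on the opposite strand, so its count is uncertain. The CDC25 phosphatases, which counter WEE1, fell as well, with log2 fold changes of -1.44 for CDC25C, -1.16 for CDC25A and -0.87 for CDC25B. MDM2, a ubiquitin ligase that ATM phosphorylates, rose from 3006 ± 339 to 6406 ± 452 (log2 fold change 1.09, adjusted p = 4.29e-08).

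Of 5 genes whose products regulate the activity or stability of checkpoint proteins, 2 rose and 3 fell, while 49.4% of all tested genes were called in either direction. PPM1D, the phosphatase that acts on ATM, CHEK1 and CHEK2, rose from 836 ± 22.1 to 2705 ± 81.3 normalized counts (1.69 on the log2 scale, adjusted p = 7.78e-11). FBXO6, a ubiquitin ligase subunit that targets CHEK1, rose by 0.54 on the log2 scale. PLK1, the mitotic kinase that ends the checkpoint through claspin degradation, fell from 1953 ± 221 to 565 ± 19.5 (log2 fold change -1.78, adjusted p = 2.64e-10), and BTRC and USP7 fell too. BTRC spans 203 kb, and its log2 fold change was 0.00 with the span trend subtracted (adjusted p = 0.99).

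**Figure D5:**
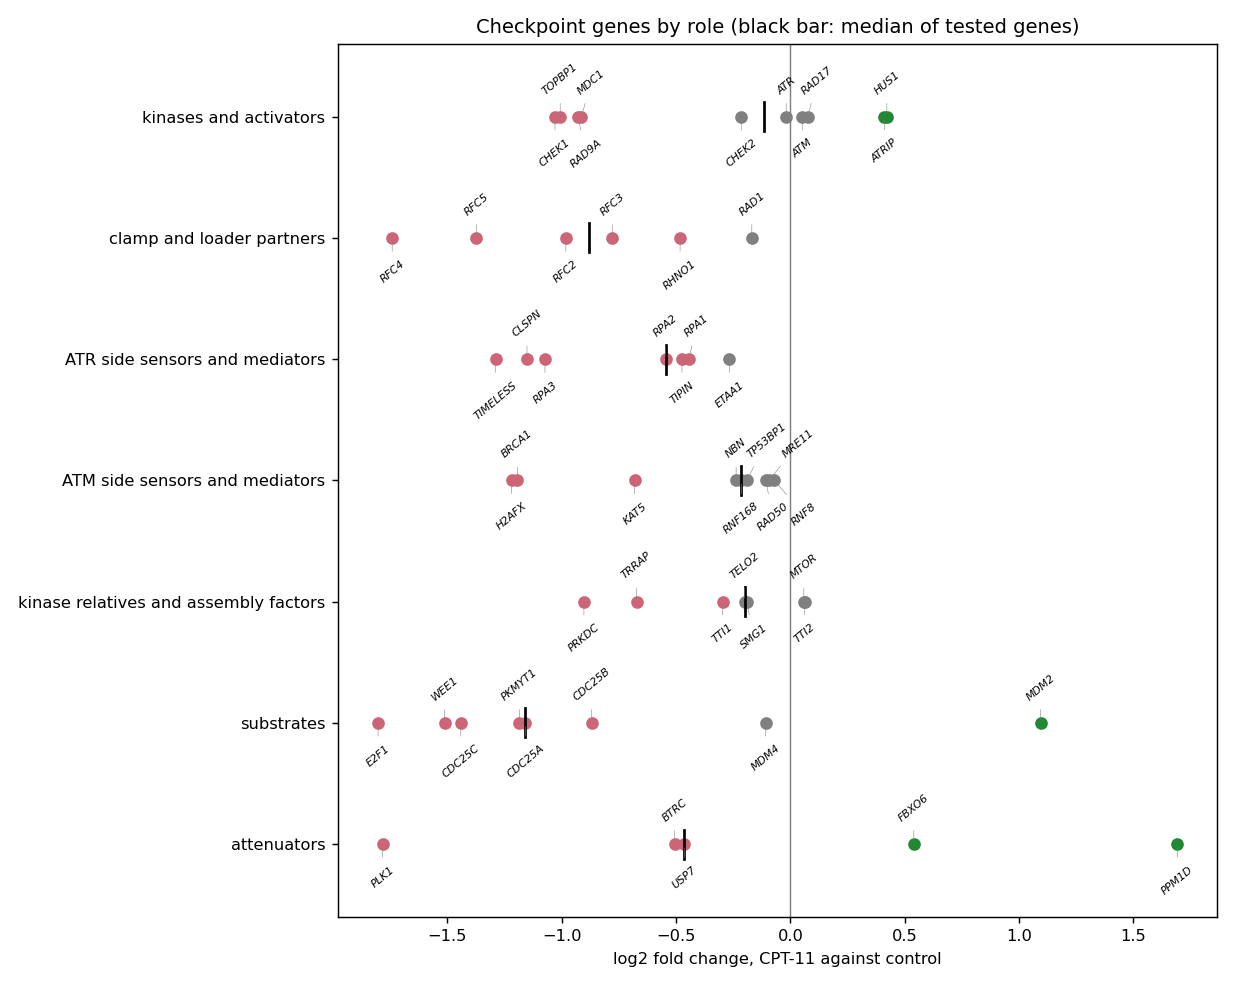
Log2 fold change, CPT-11 against control (x axis), of tested genes of the checkpoint pathway by role (rows; 1 substrate is not drawn), with genes that fell in red, rose in green and did not pass in grey; a black bar marks the median of all tested genes of a row. ATM and ATR lie near 0 while RFC4, E2F1 and PLK1 lie below -1.7 and PPM1D at 1.69.

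For each kinase the 3 protein-coding genes with the most similar course over the 6 samples were looked up among 13156 tested candidates, by Euclidean distance of log2 values centred on each gene's mean. RAB31, SRSF2 and ESCO2, a cohesin acetyltransferase of S phase, were nearest to CHEK1, at distances of 0.12, 0.12 and 0.12, and had log2 fold changes of -1.0, -1.05 and -0.93. ZC3H14 and PRDM2 were among the 3 nearest to ATM, at 0.05 and 0.08, and RAB11A, ABRACL and RPL27 to ATR, at 0.02, 0.03 and 0.04. REPS2, HFE and STX18 were nearest to CHEK2, at 0.11, 0.11 and 0.14. None of these genes near ATM, ATR or CHEK2 passed the test in limma. The distances used the same 6 samples as that test, so the fold changes and calls of all these neighbours follow from how they were picked.

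In the authors' deposited table, 2 of the 10 genes are listed higher and 4 lower at an adjusted p below 0.05, and they are the 6 genes called here. The authors' deposited table gives log2 fold changes of -1.03 for CHEK1 and 0.41 for ATRIP.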

How the data were processed

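Gene expression was measured by RNA sequencing of HCT116 cells in 3 control and 3 CPT-11 samples, grouped by their labels. The build was GRCh38, and tools listed without roles in the submitters' processing notes include DESeq2 1.22.1, featureCounts 1.6.2, HISAT2 2.1.0, edgeR 3.24.3 and fastp 0.19.3. The authors deposited a normalized signal per gene and sample, called the normalized count; 100% of values were whole multiples, within 0.001 read, of 1 step per library, so reads were recovered. The log2 fold change and the p-value with its adjusted value in the same table are the authors' own, per the file headers. Gene starts and ends equalled GENCODE release 29 for 30560 of 30560 genes.

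limma 3.58.1 (R 4.3.3) with a mean-variance trend was fitted to log2(normalized count + 1) for the 16239 genes with a mean of at least 10; all 10 checkpoint genes entered. p-values were Benjamini-Hochberg adjusted over all tested genes. SDs follow ± and cover 3 samples. A floor of 3 reads equals 0.166 to 0.195 CPM, for counting error only. The members, lists and tests were chosen with earlier results of these data known. Named genes were all 10 members, listed genes called and changed at least 2-fold, the most changed called gene of each list, and the 3 nearest genes of each kinase; other listed genes were named after their values were seen, and a few items are not reported here. The test was tried on simulated data. Alternatives covered pseudocount, filter, scaling, edgeR 4.0.16 and DESeq2 1.42.0 on recovered reads, span, a replicate block and left-out samples.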

Additional observations from a re-analysis of the deposited data

How the results depend on the processing

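CHEK1, TOPBP1, MDC1 and RAD9A passed as lower in all 19 alternative settings, with log2 fold changes of -1.08 to -0.90, -1.06 to -0.87, -1.07 to -0.83 and -1.14 to -0.82. ATRIP passed in 18 of 19 and HUS1 in 17 of 19, and CHEK2 in none. ATR, which did not pass, changed sign with libraries scaled by total (0.016), by total without mitochondrial genes (0.065, a setting added after seeing the data) and with the span trend subtracted (0.26); the cause was not tested. With 1 sample left out, the log2 fold change ranged from -0.019 to 0.145 for ATM, -0.064 to 0.063 for ATR and -0.0012 to 0.209 for RAD17, and the TOPBP1 to MDC1 log2 ratio from -0.191 to 0.030; without library 1 of both groups, added after seeing the data, the first 3 were 0.18, 0.12 and 0.32. With samples left out, 1 to 3 of the 10 genes were called higher and 4 lower. Over all genes, edgeR called 4058 higher and 4021 lower and DESeq2 3824 and 3981. Same-numbered samples did not deviate together (correlations of -0.23, -0.01 and -0.10 for numbers 1, 2 and 3). With 3 samples a group, these correlations cannot show whether same-numbered samples were prepared as pairs. With the replicate number as a block in limma, 3309 genes were called higher and 3503 lower, and 2 and 4 of the 10. In that fit TTI1 lost its call (adjusted p = 0.0836). With 753 reads or more per group the depth of the 10 genes sufficed to test them all; the 3 samples a group limit the ratio tests.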
